A study of Mus musculus with 8 samples.

Results

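The genes described are 31 endothelial and angiogenic genes, chosen by name: 24 markers of vessel cells and 7 angiogenic ligands. They were read in spontaneous ovarian tumours of untreated female TgMISIIR-TAg mice on a C57BL/6J background, 4 of which were Nedd9-null and 4 Nedd9-WT. All 8 mice, the Nedd9-WT ones included, carry the TAg transgene, in which the promoter of the Muellerian inhibiting substance type II receptor gene drives the SV40 T antigen. NEDD9 is a scaffold protein of focal adhesions. Each tumour came from 1 mouse and was read on 1 single-colour Agilent array, and the small number of arrays limits how precise any value is. All 31 genes had at least 1 probe, 38 in all, and all 31 passed the filter on dim probes. Each gene was represented by its brightest probe, and these probes were well above background on all 8 arrays. The 31 genes were set against the 25536 genes that passed the same filter. A level is the log2 signal minus the 75th percentile of its array, a difference is Nedd9-null minus Nedd9-WT in log2 units with its standard error (SE) from limma, and adjusted p values are Benjamini-Hochberg values over all 25536 genes. Levels are not corrected for probe or transcript length, so they are compared between tumours and not between genes.

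Vessels are lined by endothelial cells, which are joined by VE-cadherin, claudin-5 and PECAM1 and are steered by 2 receptor systems. VEGF ligands act through the receptors encoded by Kdr, Flt1 and Flt4, and angiopoietins act through the TIE2 receptor encoded by Tek. In a growing tumour, cells short of oxygen make VEGF-A, and endothelial tip cells at the front of a sprout switch on Dll4, Esm1, Apln and Angpt2.

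The targeted transcript followed the labels. Nedd9 was at -2.01, -3.50, -3.39 and -4.03 in the Nedd9-null tumours, against 1.15, 0.84, 1.30 and 1.85 in the Nedd9-WT tumours (difference -4.51, SE 0.44, limma adjusted p = 0.0281). Which exons are missing from the null allele is not given, so the probe may lie outside the deletion. Over all genes, 17 passed an adjusted p of 0.05, 15 higher and 2 lower in Nedd9-null tumours. The array of Nedd9-null replicate 1 stood apart from its own genotype. Over the 25536 genes it correlated at 0.886 to 0.920 with the other Nedd9-null arrays and at 0.938 to 0.973 with the Nedd9-WT arrays. Without it 4771 genes (18.7%) passed. All Nedd9-null arrays lay on 1 slide and all Nedd9-WT arrays on another, so genotype and slide cannot be told apart. Tumours also differed in their cell markers: the 5 ciliated oviduct markers measured had a median difference of 3.98, the 8 epithelial markers one of 1.005, and the 8 ovarian steroidogenic genes measured one of -3.45, with 0 of these 21 genes past the adjusted threshold. That call turns on Nedd9-null replicate 1: without it, all 5 ciliated genes and 4 of the 8 epithelial genes passed as higher and 4 of the 8 steroidogenic genes as lower. In bulk tissue, fewer vessel cells and less RNA per vessel cell cannot be told apart.

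Probes of 2 genes are shown because the reading of Kdr and Plvap turns on how 2 probes of the same gene behaved. Whether the printed probes lie in coding sequence was not tested. They are given 5′ to 3′ with mm9 coordinates from the file headers, both on the minus strand: Kdr at chr5:76330395-76330454 and Plvap at chr8:74030739-74030798. The Kdr probe is the brighter of its pair, and the Plvap probe is the dimmer.
Kdr: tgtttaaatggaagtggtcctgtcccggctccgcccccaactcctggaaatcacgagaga
Plvap: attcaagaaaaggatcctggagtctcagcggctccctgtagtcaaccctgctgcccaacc

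Promoters were read for the letters that ETS factors and hypoxia-inducible factors prefer, since ERG, a member of the ETS family that endothelial cells depend on, is itself among the markers. RefSeq promoters of GRCm38.p6, from 250 bases before to 50 bases after a start, were found for 19 of the 31 genes. AGGAAGT or CGGAAGT, on either strand, lay in 3 of 14 vessel markers (21.4%) and in 0 of 5 ligands, against 17.01% of 27025 genes. ACGTG, on either strand, lay in 1 of 14 vessel markers, Clec14a, and in 1 of 5 ligands, Vegfa, against 21.8% of all genes. In Vegfa these letters lay only in the promoter of a downstream start (chr17:46025114-46025413, minus strand). The promoter of its upstream start (chr17:46032328-46032627) held none. No promoter of the 19 genes held both motifs, so no matches overlapped. Eng and Flt1 are shown because the ETS letters, in capitals, lie at the same distance in both, 53 to 47 bases before the start (Eng on the plus strand at chr2:32646345-32646644, Flt1 on the minus strand at chr5:147725962-147726261). The third marker with the letters was Egfl7.
Eng: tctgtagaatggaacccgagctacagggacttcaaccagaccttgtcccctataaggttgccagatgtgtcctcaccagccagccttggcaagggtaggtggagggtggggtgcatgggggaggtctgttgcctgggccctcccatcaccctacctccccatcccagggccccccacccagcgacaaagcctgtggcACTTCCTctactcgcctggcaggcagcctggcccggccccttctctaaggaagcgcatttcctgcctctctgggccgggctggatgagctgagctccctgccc
Flt1: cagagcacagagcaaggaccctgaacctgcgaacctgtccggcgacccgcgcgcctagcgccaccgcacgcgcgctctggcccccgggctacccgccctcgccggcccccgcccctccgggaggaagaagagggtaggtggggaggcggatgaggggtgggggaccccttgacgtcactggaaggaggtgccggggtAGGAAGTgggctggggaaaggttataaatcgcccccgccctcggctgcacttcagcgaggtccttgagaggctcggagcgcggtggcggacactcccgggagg
A match of letters is a description of the sequence and does not show that a factor binds there.

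Vessel markers were mostly lower in the Nedd9-null tumours, but the differences were small and none passed the threshold. Of the 24 markers, 22 had a negative difference, against 47.8% of all genes. Their median difference was -0.64, against 0.03 over all genes. Adjusted over all genes, 0 of the 24 passed by limma, where 0.0666% of all genes did, and 7 had an unadjusted limma p under 0.05 and a negative difference, where 10.8% of all genes did. The 4 genes whose Nedd9-null values all lay below all Nedd9-WT values were Eng, Emcn, Esam and Erg, and 5.58% of all genes showed that pattern. Only Kdr, which turned to -0.07 with median scaling, and Plvap had a positive difference, and neither passed.

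The lower levels rested in good part on 1 tumour. Averaged over the 24 markers, with each gene set to its Nedd9-WT mean, the Nedd9-null tumours stood at -0.65, -0.49, -0.59 and -0.57 and the Nedd9-WT tumours at -0.19, -0.35, -0.17 and 0.72. The Nedd9-null tumours lay close together, and Nedd9-WT replicate 4 lay above all the others. It held the highest level of 17 of the 24 markers (70.8%, against 13.3% of all genes). Without it, 18 markers had a negative difference, the median difference was -0.34, and 0 markers passed. The Nedd9-WT spread exceeded the Nedd9-null spread in 20 of the 24 markers, against 49.1% of all genes.

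**Figure D1:**
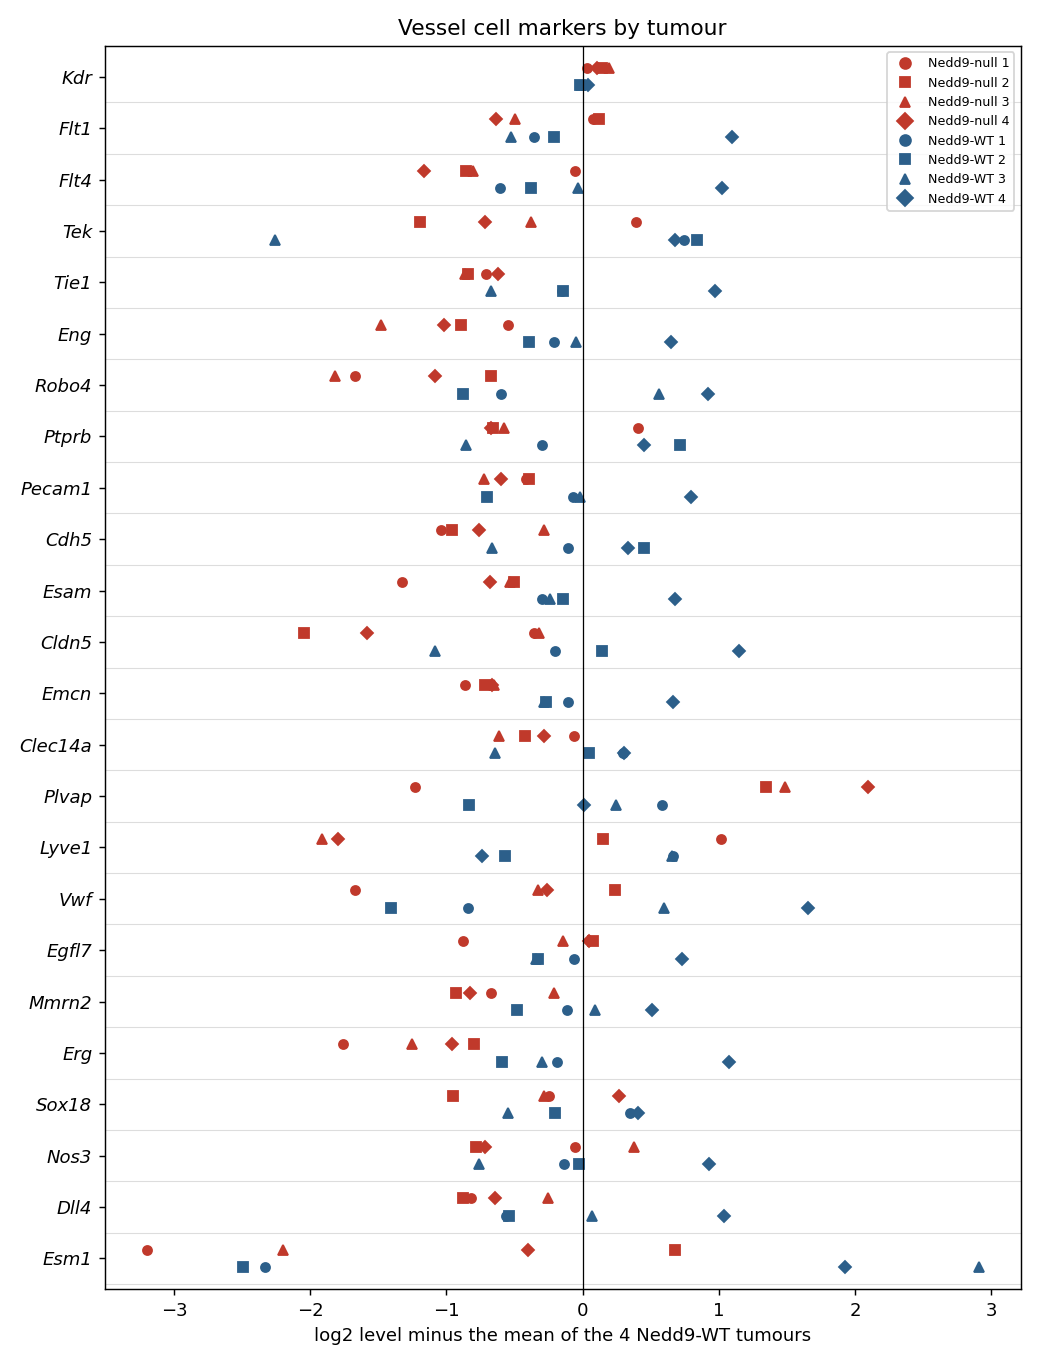
Level of each of the 24 vessel cell markers in each tumour, in log2 units relative to the mean of the 4 Nedd9-WT tumours (the vertical line at 0). Red symbols are Nedd9-null and blue symbols Nedd9-WT tumours, with 1 shape per replicate number; the blue diamond, Nedd9-WT replicate 4, is the rightmost point of 17 markers.

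Blood cell genes moved with that tumour. Set to their Nedd9-WT means in the same way, the 5 red blood cell genes measured averaged -2.55, -1.89, -2.85 and -1.43 in the Nedd9-null tumours, against -2.67, 0.23, 0.34 and 2.09 in the Nedd9-WT tumours. The 5 platelet and megakaryocyte genes measured averaged -2.17, -0.23, -1.30 and -1.31 in the Nedd9-null tumours, against -0.97, -1.52, 0.13 and 2.36 in the Nedd9-WT tumours. In both lists Nedd9-WT replicate 4 was the highest of the 8 tumours, and 0 genes of either list passed. Vwf is made by megakaryocytes as well as by endothelium. The part of blood in the level of the vessel markers was not tested. The 11 leukocyte genes measured, by contrast, averaged -0.51, 0.91, -0.02 and 0.03 in the Nedd9-null tumours, against 0.21, -1.06, 1.04 and -0.20 in the Nedd9-WT tumours, so that Nedd9-WT replicate 4 did not stand out.

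Of the 8 receptor genes, Robo4 and Eng had the most negative differences, and 0 passed. Endoglin, encoded by Eng, is a co-receptor of the TGF-beta family on proliferating endothelium. Eng was at -1.11, -1.45, -2.03 and -1.57 in the Nedd9-null tumours, against -0.77, -0.95, -0.60 and 0.10 in the Nedd9-WT tumours. The genotypes did not overlap (difference -0.98, SE 0.29, 1.98-fold lower, limma adjusted p = 0.112). Eng had the lowest adjusted p of the 31 genes. Robo4, which encodes a receptor that steadies the vessel wall, was at -0.50, 0.50, -0.65 and 0.09 in the Nedd9-null tumours, against 0.57, 0.29, 1.73 and 2.09 in the Nedd9-WT tumours. The genotypes overlapped at Nedd9-null replicate 2, which lay above Nedd9-WT replicate 2 (difference -1.31, SE 0.46, limma adjusted p = 0.149).

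The receptors of the angiopoietin system were uneven across tumours. Tie1, the partner of TIE2, was at -2.86, -3.001, -3.02 and -2.78 in the Nedd9-null tumours, against -2.31, -2.30, -2.83 and -1.19 in the Nedd9-WT tumours. The Nedd9-null values lay within 0.24 of each other, and the overlap came from Nedd9-WT replicate 3 (difference -0.76, SE 0.33, limma adjusted p = 0.212). Tek was at -4.004, -5.59, -4.77 and -5.11 in the Nedd9-null tumours, against -3.65, -3.55, -6.65 and -3.72 in the Nedd9-WT tumours. Here Nedd9-WT replicate 3 had the lowest value of all, and the other Nedd9-WT tumours the 3 highest (difference -0.48, SE 0.73, limma adjusted p = 0.735). Ptprb, the endothelial phosphatase that restrains TIE2, was at 1.20 in Nedd9-null replicate 1 and at 0.13 to 0.22 in the other Nedd9-null tumours, against -0.06 to 1.51 in the Nedd9-WT tumours (difference -0.37, SE 0.41).

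Of the VEGF receptor genes, Flt4 had the most negative difference, and none passed. Flt1, which encodes VEGFR1, was at 0.11, 0.16, -0.46 and -0.60 in the Nedd9-null tumours, against -0.32, -0.18, -0.50 and 1.13 in the Nedd9-WT tumours (difference -0.23, SE 0.39). Its sign turned without Nedd9-WT replicate 4 (0.13). Flt4, which encodes VEGFR3, the receptor of VEGF-C on lymphatic and sprouting endothelium, was at -4.71, -5.51, -5.46 and -5.82 in the Nedd9-null tumours, against -5.26, -5.03, -4.68 and -3.63 in the Nedd9-WT tumours (difference -0.72, SE 0.40, limma adjusted p = 0.308).

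Kdr, which encodes VEGFR2, the main signalling receptor for VEGF-A, was read differently by its 2 probes, which lie 1086 bases apart. The brighter probe, whose sequence is given above, was at 0.76, 0.87, 0.92 and 0.83 in the Nedd9-null tumours, against 0.72, 0.71, 0.71 and 0.77 in the Nedd9-WT tumours. This is a range of 1.16-fold over 8 tumours, the narrowest of the 31 genes, and the difference was 0.12 (SE 0.13, limma adjusted p = 0.612). The dimmer probe was at 0.29, 0.83, -0.14 and -0.64 in the Nedd9-null tumours, against 0.01, 0.66, -0.39 and 0.28 in the Nedd9-WT tumours, a difference of -0.05. Both probes gave differences near 0, but they ranked the tumours differently, so that the level of Kdr in a single tumour depends on the probe. With the arrays scaled to their medians, which moved the median difference of all genes to -0.16, the brighter probe gave -0.07.

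Of the 8 junction and surface genes, 7 had a negative difference and 2 did not overlap between genotypes. Emcn encodes endomucin, a sialomucin of capillary and venous endothelium. It was at -3.08, -2.93, -2.86 and -2.88 in the Nedd9-null tumours, against -2.32, -2.48, -2.50 and -1.55 in the Nedd9-WT tumours. The Nedd9-null tumours were tightly grouped and all lower (difference -0.73, SE 0.24, 1.65-fold lower, limma adjusted p = 0.131). Esam, an adhesion molecule of endothelial tight junctions, was at -1.39, -0.56, -0.59 and -0.74 in the Nedd9-null tumours, against -0.35, -0.20, -0.30 and 0.62 in the Nedd9-WT tumours. The genotypes did not overlap, and each had 1 distant tumour, Nedd9-null replicate 1 at the low end and Nedd9-WT replicate 4 at the high end (difference -0.76, SE 0.29, limma adjusted p = 0.168).

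The classical junction markers overlapped between genotypes. Cdh5, the VE-cadherin gene, was at 0.09, 0.16, 0.84 and 0.37 in the Nedd9-null tumours, against 1.01, 1.57, 0.45 and 1.46 in the Nedd9-WT tumours. Only Nedd9-null replicate 3 reached the Nedd9-WT range (difference -0.76, SE 0.29, limma adjusted p = 0.173), and Cdh5 was among the 7 markers whose highest tumour was not Nedd9-WT replicate 4. Pecam1, which encodes CD31, was at -2.89, -2.87, -3.20 and -3.08 in the Nedd9-null tumours, against -2.55, -3.18, -2.50 and -1.68 in the Nedd9-WT tumours (difference -0.53, SE 0.30, limma adjusted p = 0.323). Cldn5, the claudin of tight endothelial junctions, was at -0.36, -2.05, -0.33 and -1.59 in the Nedd9-null tumours, against -0.21, 0.14, -1.09 and 1.14 in the Nedd9-WT tumours. Its Nedd9-null values formed 2 pairs far apart, and its Nedd9-WT values spread from -1.09 to 1.14 (difference -1.08, SE 0.57, limma adjusted p = 0.291). Clec14a, a lectin of tumour endothelium, differed by -0.35 (SE 0.25) on its brighter probe and by 0.13 on its dimmer one.

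Lyve1, a hyaluronan receptor of lymphatic vessels that some macrophages also carry, split the Nedd9-null tumours: it was at -3.03, -3.90, -5.97 and -5.85 there, against -3.39, -4.62, -3.40 and -4.79 in the Nedd9-WT tumours (difference -0.64, SE 0.73). The lymphatic list showed a similar order within Nedd9-null. Its 5 genes measured, among them Prox1, the master regulator of lymphatic identity, averaged 1.18, -0.09, -0.89 and -2.01 in the Nedd9-null tumours, against 0.23, 0.95, -1.32 and 0.14 in the Nedd9-WT tumours, and 0 passed.

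Plvap ran against the other markers. It encodes the protein of the diaphragms that span fenestrated capillaries, and it was at -1.42, 1.16, 1.30 and 1.91 in the Nedd9-null tumours, against 0.39, -1.03, 0.06 and -0.18 in the Nedd9-WT tumours. In the Nedd9-null group, 3 tumours lay above every Nedd9-WT tumour and replicate 1 below all of them (difference 0.92, SE 0.71, limma adjusted p = 0.468). The dimmer probe, 8862 bases away and printed above, gave -3.12, -1.59, -1.44 and -0.88 in the Nedd9-null tumours, against -2.17, -3.28, -2.62 and -2.65 in the Nedd9-WT tumours, a difference of 0.92 as well.

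Leaving out Nedd9-null replicate 1 changed the outcome for 2 markers. Plvap then differed by 1.64 (SE 0.37, limma adjusted p = 0.0223) and Eng by -1.13 (SE 0.29, limma adjusted p = 0.0366), so that Plvap rose and Eng fell under that choice. They were 2 of 24 markers in a fit in which 18.7% of all genes passed, and 22 markers kept a negative difference. With Nedd9-WT replicate 4 left out as well, a choice made after the values had been seen, Eng alone passed (-0.91, limma adjusted p = 0.0415) while 15.8% of all genes did. The share of markers that passed was below that of all genes in both fits.

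**Figure D2:**
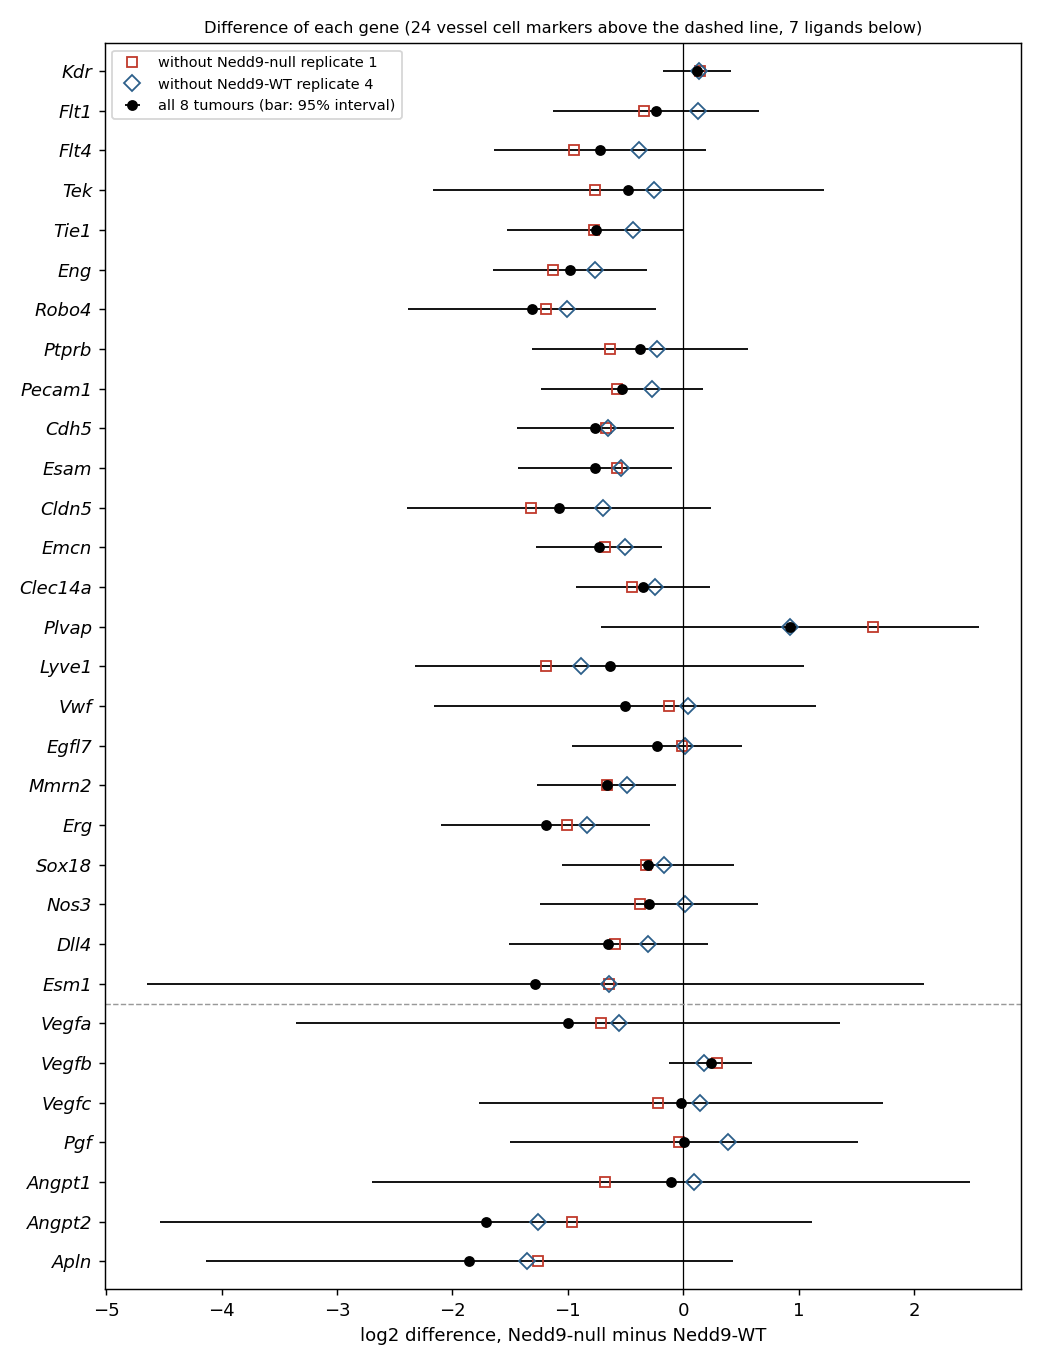
Difference of each of the 31 genes, Nedd9-null minus Nedd9-WT in log2 units, with all 8 tumours (black points, bars are 95% intervals), without Nedd9-null replicate 1 (red squares) and without Nedd9-WT replicate 4 (blue diamonds). Most vessel markers lie left of 0 and move toward it without Nedd9-WT replicate 4, while Plvap moves to 1.64 without Nedd9-null replicate 1.

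Among regulators, Erg encodes an ETS factor that maintains endothelial identity. It was at -6.98, -6.02, -6.48 and -6.19 in the Nedd9-null tumours, against -5.41, -5.82, -5.53 and -4.15 in the Nedd9-WT tumours. The genotypes did not overlap (difference -1.19, SE 0.39, 2.28-fold lower, limma adjusted p = 0.133). The other Erg probe gave -1.14 but was dim, with signals of 8.49 to 15.5 in the Nedd9-null tumours, against 18.6 to 43.5 in the Nedd9-WT tumours. It was well above background on only 3 of the 8 arrays. It thus passed the filter through 1 genotype alone and is not separate support for the difference. Sox18, a factor of vascular and lymphatic development, differed by -0.30 (SE 0.32). Nos3, the endothelial nitric oxide synthase, differed by -0.30 (SE 0.41) and by 0.01 without Nedd9-WT replicate 4.

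The secreted and matrix markers differed in how much they varied. Mmrn2 encodes multimerin-2, a matrix protein deposited by endothelium. It was at 0.72, 0.46, 1.18 and 0.56 in the Nedd9-null tumours, against 1.28, 0.91, 1.48 and 1.90 in the Nedd9-WT tumours. Nedd9-null replicate 3 alone lay inside the Nedd9-WT range (difference -0.66, SE 0.26, limma adjusted p = 0.178). Vwf, the von Willebrand factor gene, was at -1.07, 0.84, 0.27 and 0.34 in the Nedd9-null tumours, against -0.24, -0.81, 1.20 and 2.25 in the Nedd9-WT tumours, a 10.02-fold range over the 8 tumours (difference -0.51, SE 0.72). Egfl7, a secreted guide of endothelial tubes, was at 1.27 to 2.22 in the Nedd9-null tumours, against 1.81 to 2.88 in the Nedd9-WT tumours (difference -0.23, SE 0.32). Without Nedd9-WT replicate 4 the differences of Vwf and Egfl7 were 0.04 and 0.02.

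The 2 sprout tip genes differed in spread. Dll4, the Notch ligand of tip cells, was at -4.10, -4.16, -3.53 and -3.93 in the Nedd9-null tumours, against -3.84, -3.83, -3.21 and -2.25 in the Nedd9-WT tumours (difference -0.65, SE 0.37, limma adjusted p = 0.327). Esm1, which encodes endocan, was at -2.18, 1.70, -1.18 and 0.62 in the Nedd9-null tumours, against -1.31, -1.47, 3.93 and 2.95 in the Nedd9-WT tumours. Its range over the 8 tumours was 69.1-fold, the widest of the 31 genes, and both genotypes held low and high tumours (difference -1.28, SE 1.46, limma adjusted p = 0.634).

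The ligands varied widely from tumour to tumour, and no difference between genotypes passed the threshold. Of the 7 ligands, 5 had a negative difference, 0 passed by limma and 0 had an unadjusted p under 0.05, and the median difference was -0.11. In 5 of them the highest and lowest tumours were more than 8-fold apart, against 19.6% of all genes. In all 7 the Nedd9-WT tumours had the larger SD, although the range of Apln was wider in Nedd9-null (3.56 log2 units, against 3.29 in Nedd9-WT).

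Vegfa, the chief angiogenic ligand, was at 0.84, 2.96, 1.25 and 1.76 in the Nedd9-null tumours, against 0.24, 1.69, 4.85 and 4.03 in the Nedd9-WT tumours. Nedd9-WT held both the lowest tumour and the 2 highest (difference -0.999, SE 1.02, limma adjusted p = 0.593).

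Angpt2, which opposes TIE2 signalling in many settings, was at -3.81, 0.34, -1.87 and -0.97 in the Nedd9-null tumours, against -2.52, -0.67, 2.24 and 1.49 in the Nedd9-WT tumours (66.3-fold range, difference -1.71, SE 1.22, limma adjusted p = 0.434). Apln, the apelin peptide gene of sprouting endothelium, was at -3.07, 0.49, -1.49 and -1.02 in the Nedd9-null tumours, against -0.50, -1.22, 1.97 and 2.07 in the Nedd9-WT tumours (difference -1.85, SE 0.99, limma adjusted p = 0.294). In both genes Nedd9-WT replicates 3 and 4 were the highest of all tumours and Nedd9-null replicate 1 the lowest. Pgf, the placental growth factor gene, followed the same upper pair: it was at -3.03, -2.66, -3.30 and -3.59 in the Nedd9-null tumours, inside the Nedd9-WT values of -4.26, -4.47, -1.87 and -1.999 (difference 0.00, SE 0.65).

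The other ligands did not share that order. Angpt1, the agonist of TIE2 made largely by mural and stromal cells, was at -0.97, -3.60, -3.59 and -2.51 in the Nedd9-null tumours, against -2.37, -0.31, -5.61 and -1.96 in the Nedd9-WT tumours (difference -0.11, SE 1.12). Vegfc, the lymphangiogenic ligand, was at -2.62, -3.90, -2.95 and -3.45 in the Nedd9-null tumours, against -2.22, -2.30, -5.61 and -2.72 in the Nedd9-WT tumours (difference -0.02, SE 0.76). Nedd9-WT replicate 3, the tumour with the most Vegfa, had the lowest level of Angpt1, Vegfc and Tek. Vegfb, a ligand of VEGFR1, was nearly constant at 0.81, 0.93, 1.09 and 1.08 in the Nedd9-null tumours, against 0.90, 0.62, 0.88 and 0.57 in the Nedd9-WT tumours (difference 0.24, SE 0.16, limma adjusted p = 0.391).

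**Figure D3:**
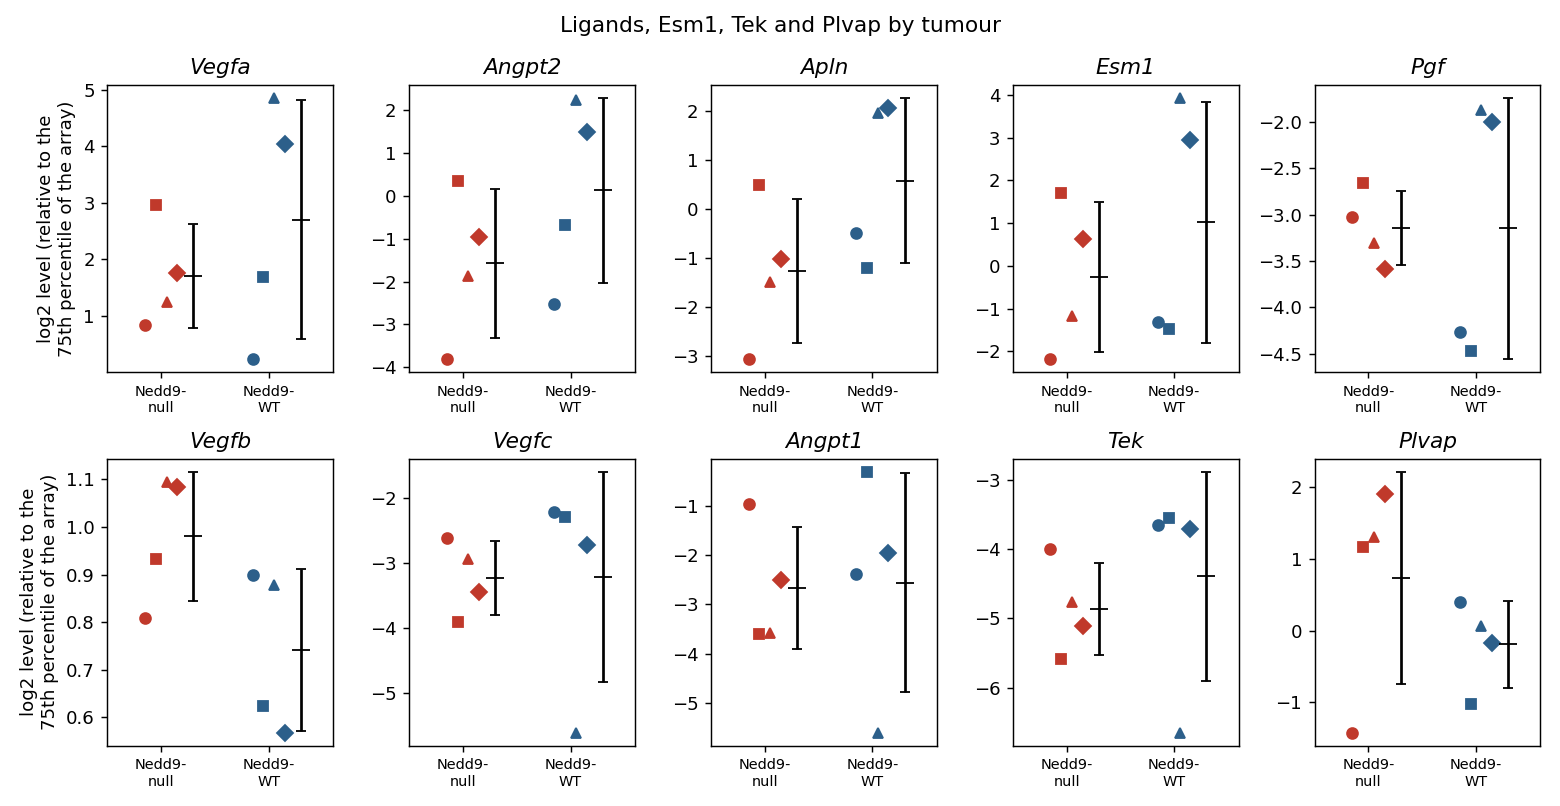
Log2 level (scaled to the 75th percentile of the array) for the 7 ligands, Esm1, Tek and Plvap, with Nedd9-null tumours in red to the left of Nedd9-WT tumours in blue; 1 symbol is 1 tumour, and bars give the mean and SD (n = 4 each). Each panel has its own axis; Nedd9-WT replicates 3 and 4 (triangle and diamond) top the panels of Vegfa, Angpt2, Apln, Esm1 and Pgf.

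Across tumours, the level of Vegfa ran with that of Angpt2 by r and by rho, and with Esm1 and Apln by r, while its relation with Dll4 did not pass. The choice of Vegfa was made after the values had been seen, and 42 relations were computed, with the 30 other genes and with 12 hypoxia response genes. All values share the scaling of their array. The r of Angpt2 with Vegfa was 0.946 (Spearman rho 0.952, n = 8, two-sided exact permutation p = 0.00047 for r and 0.0011 for rho, adjusted over the 42 relations 0.0066 and 0.016). Within genotypes, which are also the slides, r was 0.937 in the 4 Nedd9-null and 0.997 in the 4 Nedd9-WT tumours. Without Nedd9-WT replicates 3 and 4, the tumours farthest from the median of Vegfa, it was 0.858.

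The r of Esm1 with Vegfa was 0.948 (rho 0.881, exact permutation p = 0.00047 for r and 0.0072 for rho, adjusted 0.0066 and 0.061), with 0.953 within each genotype and 0.816 without those 2 tumours. The r of Apln was 0.859 (rho 0.738, exact permutation p = 0.0065 for r and 0.046 for rho, adjusted 0.039 and 0.175), with 0.960 within Nedd9-null and 0.880 within Nedd9-WT. Without those 2 tumours, neither of which is in the Nedd9-null group, it was 0.541. The relation of Apln across both genotypes thus rests in part on them. Of the 30 genes, these 3 passed after adjustment by r and Angpt2 alone by rho. Among the other 25535 genes of the fit, 1.03% had an r of at least 0.859, the smallest that passed among the 42, and 0.607% had a rho of at least 0.905, the smallest that passed by rho.

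The other vessel markers ranged from a close to no relation with Vegfa. Vwf had an r of 0.807 (rho 0.857, exact permutation p = 0.0153 for r and 0.0107 for rho, adjusted 0.0641 and 0.0643) and 0.611 without those 2 tumours. Robo4 had an r of 0.806 (rho 0.571, exact permutation p = 0.0186 for r and 0.151 for rho, adjusted 0.0711 and 0.373), and 0.248 without them. Neither passed after adjustment. The tip cell gene Dll4 had an r of 0.626 (rho 0.405, exact permutation p = 0.0872 for r and 0.327 for rho, adjusted 0.229 and 0.624), which was -0.421 within Nedd9-null, 0.724 within Nedd9-WT and -0.394 without those 2 tumours. Cdh5 had an r of 0.018 (rho 0.024, exact permutation p = 0.967 for r and 0.977 for rho).

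Hypoxia response genes ran the same way. All 12 had a positive r with Vegfa, against 47.7% of all genes. After adjustment 4 passed by r (Egln3, Pfkfb3, Bnip3 and Ldha), of which Bnip3 did not pass by rho (adjusted exact permutation p = 0.147). Egln3, an oxygen sensor that hypoxia-inducible factors switch on, had an r of 0.971 (rho 0.976, exact permutation p = 7.4e-05 for r and 0.0004 for rho, adjusted 0.0031 and 0.0083), and 0.907 without the same 2 tumours. Egln3 was at -1.55, 0.57, -1.54 and -0.97 in the Nedd9-null tumours, against -1.89, 0.02, 2.53 and 1.22 in the Nedd9-WT tumours. As a list, the 12 hypoxia genes did not separate the genotypes: 7 had a negative difference, the median difference was -0.04 and 0 passed, with Car9 alone past the threshold without Nedd9-null replicate 1. Tek and Vegfc ran the other way, with an r of -0.594 (rho -0.571, exact permutation p = 0.122 and 0.151) and -0.744 (rho -0.762, exact permutation p = 0.027 and 0.037), neither past the threshold after adjustment (adjusted 0.284 and 0.373 for Tek, 0.094 and 0.154 for Vegfc).

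**Figure D4:**
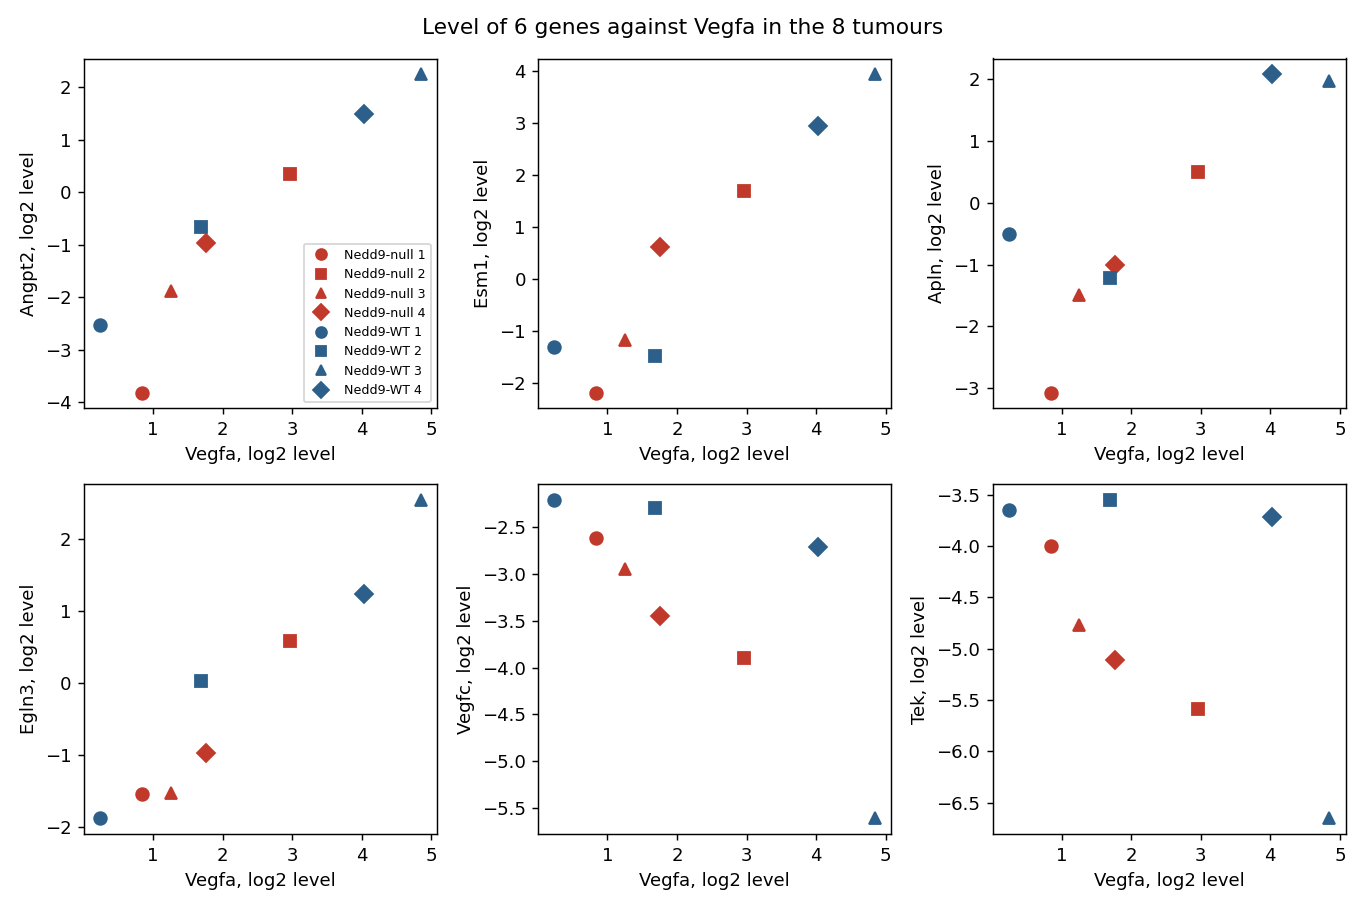
Log2 level of Angpt2, Esm1, Apln, Egln3, Vegfc and Tek (vertical axes) against that of Vegfa (horizontal axes) in the 8 tumours, Nedd9-null in red and Nedd9-WT in blue. The first 4 genes climb with Vegfa in both genotypes, and Nedd9-WT replicate 3 lies lowest for Vegfc and Tek.

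**Figure D5:**
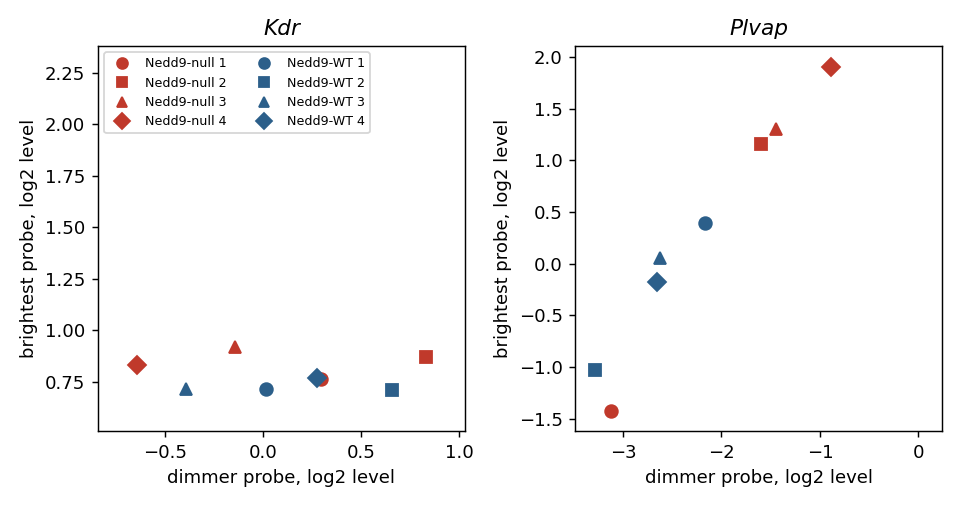
Log2 level of the brighter probe (vertical axes) against that of the dimmer probe (horizontal axes) of Kdr and Plvap in the 8 tumours, Nedd9-null in red and Nedd9-WT in blue. The probes of Plvap order the tumours almost alike, while the brighter Kdr probe spans 0.21 log2 units where the dimmer one spans 1.47.

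Further genes of the same pathways did not follow the markers as a block. Of 31 other endothelial genes measured, 21 had a negative difference and 0 passed, with a median of -0.28. Without Nedd9-null replicate 1, 5 passed as higher and 1 as lower, in a fit in which 18.7% of all genes passed. Cd34, a sialomucin of capillary endothelium and progenitors, was at 1.07, 1.45, 2.42 and 2.26 in the Nedd9-null tumours, against 2.99, 2.84, 2.73 and 2.67 in the Nedd9-WT tumours, without overlap (difference -1.01, SE 0.31, limma adjusted p = 0.122). Sox7, a relative of Sox18, went the other way: it was at -2.98, 1.79, 2.47 and 2.37 in the Nedd9-null tumours, against -2.16, -3.09, -3.62 and -2.05 in the Nedd9-WT tumours (difference 3.64, SE 1.20, limma adjusted p = 0.132). Rhoj, a small GTPase of endothelial cells, had the same split, with Nedd9-null replicate 1 at -1.18 and the other Nedd9-null tumours at 3.28 to 3.69, against -1.84 to -0.33 in the Nedd9-WT tumours. The 3 Nedd9-null tumours with high Sox7 and Rhoj are those with high Plvap. These tumours also had the highest averages of the ciliated oviduct markers, 5.15, 5.83 and 5.85, against 2.27 in Nedd9-null replicate 1. Their averages of the epithelial markers were the highest as well, at 2.06, 2.08 and 1.17, against -0.61 in Nedd9-null replicate 1. Each marker was set to its Nedd9-WT mean. Without Nedd9-null replicate 1, Sox7 differed by 4.94 (limma adjusted p = 0.000614) and Rhoj by 4.48 (limma adjusted p = 0.000655). The related Sox17 then differed by 4.97 (limma adjusted p = 0.000461). The cells behind Sox7, Sox17, Rhoj and Plvap were not separated here.

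Of 32 other angiogenic signalling genes measured, 19 had a negative difference and 0 passed, with a median of -0.17. Without Nedd9-null replicate 1, 5 passed as higher and 2 as lower, again where 18.7% of all genes passed. Nrp2, a co-receptor of VEGF-C and semaphorins, was at 0.93, 0.20, -0.83 and -0.69 in the Nedd9-null tumours, against 4.12, 2.53, 3.66 and 2.12 in the Nedd9-WT tumours, without overlap (difference -3.21, SE 0.56, limma adjusted p = 0.069). Efnb2, the arterial ephrin, was at 1.36, 2.87, 3.45 and 2.88 in the Nedd9-null tumours, against 0.48, 0.20, -0.01 and -0.14 in the Nedd9-WT tumours, also without overlap (difference 2.51, SE 0.43, limma adjusted p = 0.069). Sphk1, which makes sphingosine 1-phosphate, was at 1.49 to 2.08 in the Nedd9-null tumours, against -0.09 to 0.63 in the Nedd9-WT tumours (difference 1.52, SE 0.22, limma adjusted p = 0.060). Without Nedd9-null replicate 1 all 3 passed: Nrp2 fell (-3.55, limma adjusted p = 0.00484), and Efnb2 (2.94, limma adjusted p = 0.000453) and Sphk1 (1.51, limma adjusted p = 0.00661) rose. Epithelial and stromal cells also express these 3 genes, and the cells behind them were not separated here.

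Mural cells wrap the vessels that endothelium lines. Of 15 pericyte and smooth muscle genes, 7 had a negative difference and 0 passed, with a median of 0.07, while Anpep alone passed, as higher, without Nedd9-null replicate 1. Averaged over the list, they stood at -0.17, 0.68, -0.07 and -0.17 in the Nedd9-null tumours, against 0.34, 0.12, -1.38 and 0.91 in the Nedd9-WT tumours. Nedd9-WT replicate 3 was the low one. Its Rgs5, a pericyte gene, was at -6.57 where the other Nedd9-WT tumours were at -1.56 to -0.64, and its Pdgfrb, the receptor that recruits pericytes, was at -5.17 where they were at -1.49 to -0.58.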

How the data were processed

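The deposited scanner files hold 1-colour intensity values, made per the submitters' processing notes with Agilent Feature Extraction 9.5.3, which per the file headers subtracted background within each array and did not normalize between arrays. Per the labels' protocols, tumours were snap-frozen and 500 ng of RNA was labelled with Cy3. On size the labels conflict, with a burden under 2000 mm3 in one place and a mass that had reached it in another. The deposited value table holds log2 values with a shared column median of 8.24, its background step is not given in the sources used here, and it served as an alternative.

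Of 44397 spots, 1377 controls and 194 to 292 outlier spots per array were left out, and spots of a probe were averaged. Values are log2 processed signal minus the array's 75th percentile (2418 to 3552 in signal). A probe was kept if well above background on 3 or more of the 4 arrays of a genotype, and the brightest stood for its gene. Names were updated through RefSeq GRCm38.p6 tables (26055 probes by accession, 3195 by symbol, 930 by synonym, while 9249 were left as deposited). The fit used lmFit and eBayes of limma 3.58.1 (R 4.3.3), 2-sided, with a threshold of 0.05, and was tested on simulated data. With 200 changed genes per run, it recovered 18.1% of log2 changes of 1, 56.8% of 2 and 82.3% of 4. Of its calls, 5.6% were false. The simulated noise was normal and independent for each gene, with no slide effect and no array standing apart. These shares need not hold for the real arrays. Since recovery was partial even in the simulation, a gene that did not pass is not shown to be unchanged. Relations with Vegfa were tested by exact permutation in numpy 2.4.6, and the computation of r was checked against scipy 1.17.1 on random values.

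Members and gene lists were chosen with earlier results of these data known. All 31 members are named. From the other lists, the named genes are among those with the smallest p, except Egln3, Pfkfb3, Bnip3, Ldha, Rgs5, Pdgfrb, Car9 and Prox1, chosen after their values were seen. Groups and replicate numbers come from the sample titles. Same-numbered tumours of the 2 genotypes did not deviate together (correlations of -0.23 to -0.04), so the numbers were not taken as pairs. Alternatives were the scaling, the background step, the filter, the probe of a gene, array weights, the replicate block and leaving out arrays.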

Additional observations from a re-analysis of the deposited data

Results flagged for a closer look

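In 5 of 64 groups of 4 tumours, 1 tumour lay so far from the other 3 that its gap to the nearest exceeded Dixon's critical value, and chance alone gives about 1 in 20. Tek was at -6.65 in Nedd9-WT replicate 3, where the other Nedd9-WT tumours were at -3.72 to -3.55. Vegfc was at -5.61 in the same tumour, where the others were at -2.72 to -2.22. Ptprb was at 1.20 in Nedd9-null replicate 1, where the other Nedd9-null tumours were at 0.13 to 0.22. Esam was at 0.62 in Nedd9-WT replicate 4, where the others were at -0.35 to -0.20. Kdr was at 0.77 in Nedd9-WT replicate 4, where the others were at 0.71 to 0.72, a gap that is small in absolute size.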

How the results depend on the processing

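The count of genes past the threshold, 17, was 4 with median scaling, 4 with quantile normalization, 7 with the filter on all 8 arrays, 5984 with array weights, 0 with the replicate number as a block, 4034 without Nedd9-null replicate 1 and Nedd9-WT replicate 4, and between 0 and 4771 with 1 array left out. The replicate block changed no call among the 31 genes. The count of vessel markers past it, 0, was 3 with array weights (Eng, Emcn and Plvap), 1 without both arrays and between 0 and 2 with 1 array left out; ligands with a negative difference numbered 3 to 6 with 1 array left out.

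Of 565 values (31 genes under 18 alternatives, and 7 genes with a second probe), 28 changed sign, in 10 genes, and the cause was not tested. Kdr was -0.072 with median scaling and -0.052 with its other probe, and Clec14a was 0.13 with its other probe. Pgf was -0.19, -0.15, -0.20 and -0.21 with median scaling, quantile normalization, normexp background and the deposited table. Without both arrays Flt1, Vwf, Egfl7 and Esm1 were 0.029, 0.43, 0.23 and 0.00051. With 1 array left out, Flt1 was between -0.41 and 0.13, Vwf between -0.98 and 0.045, Egfl7 between -0.34 and 0.017, Nos3 between -0.55 and 0.014, Vegfc between -0.82 and 0.31, Pgf between -0.44 and 0.43, and Angpt1 between -1.12 and 0.64. The 31 chosen probes were well above background on all 8 arrays.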

Other observations

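Adm, which encodes the vasodilator peptide adrenomedullin, had its 3 highest levels in the same tumours as Esm1 and Angpt2: it was at -2.18, 1.57, -0.71 and -0.06 in the Nedd9-null tumours, against -1.63, -1.32, 2.33 and 1.44 in the Nedd9-WT tumours (difference -0.55, SE 1.11). Abcc9, a potassium channel subunit gene of pericytes, was at -2.82, -2.13, -2.10 and -2.75 in the Nedd9-null tumours, against -1.66, -1.27, -0.45 and 0.14 in the Nedd9-WT tumours, without overlap (difference -1.64, SE 0.41, limma adjusted p = 0.0957). Its usual partner in pericytes, Kcnj8, differed by -0.14 (SE 0.50). Mcam, which mural and endothelial cells express, was at 2.37, 2.06, 2.16 and 2.65 in the Nedd9-null tumours, against 2.78, 2.66, 3.78 and 2.97 in the Nedd9-WT tumours, also without overlap (difference -0.74, SE 0.28, limma adjusted p = 0.166). Adm and Kcnj8 were chosen after their values were seen.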
